A study of Homo sapiens with 9 samples.

Results

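The transcripts of MYC and of the proteins that share its partner MAX were measured in SKOV3 cells, an epithelial line derived from an ovarian cancer. The 9 genes of this network were chosen by name and by their known roles, with earlier results of these data known. They came from 58735 genes listed, and all 9 were among the 16350 genes that passed the expression filter. They are MYC, its partner MAX, the MXD-type repressors MXD1, MXI1, MXD3 and MXD4, the larger repressors MNT and MGA, and the MAX-like partner MLX. CDK9 is the kinase of P-TEFb, the complex that releases paused RNA polymerase II, and the study asked what happens when phosphorylation of its tyrosine 19 by the receptor tyrosine kinase ALK is blocked. The 3 groups of 3 libraries were cells expressing wild-type CDK9 (WT CDK9) in basal medium, the same WT CDK9 cells given an ALK inhibitor for 24 h, and cells expressing CDK9 with tyrosine 19 replaced by phenylalanine (Tyr19Phe CDK9) in basal medium. The inhibitor and its dose are not given for these libraries in the sources used here. Stable lines of the same study carried WT or Tyr19Phe CDK9 put back into cells depleted of CDK9, but it is not said that these libraries came from them, nor whether a line was a clone or a pool. Read counts do not separate introduced from endogenous CDK9.

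MYC is a transcription factor of the basic helix-loop-helix leucine zipper family that binds DNA only when paired with MAX, at the sequence CACGTG known as the E-box. The MXD proteins, MNT and MGA compete with MYC for MAX. MXD proteins and MNT bring SIN3 corepressors to the same sites, whereas MGA is the scaffold of a Polycomb complex, PRC1.6. MLX pairs with the glucose-responsive factors MondoA (gene MLXIP) and ChREBP (gene MLXIPL), and also with MNT, MXD1 and MXD4, which links both branches of the network. MYC promotes ribosome production, nucleotide synthesis and growth, its transcript is short-lived, and its gene is often gained in ovarian cancer.

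Total counts were 18169050 to 20974903 in the 6 WT CDK9 and inhibitor-treated libraries and 26485891 to 29320184 in the Tyr19Phe libraries. Values are given as CPM (read counts scaled by library size with TMM factors), and 3 counts, used as a floor, equal 0.102 to 0.165 CPM. Inhibitor replicate 2 and Tyr19Phe replicate 3 had fewer genes detected (19944 and 20635) than the other libraries of their groups (21911 to 22744). All 7 epithelial markers passed the filter, with summed levels of 5319 to 5508 CPM in WT CDK9, 5847 to 5986 CPM with the inhibitor and 5163 to 5357 CPM in Tyr19Phe CDK9 cells. None of 7 blood, vessel and stromal markers did, and their summed level was at most 1.24 CPM. The epithelial sums hide opposite moves of single markers, called at an adjusted p under 0.05 in edgeR. With the inhibitor 2 were called higher and 1 lower (42.9%, beside 4.55% of all genes). In Tyr19Phe against WT CDK9, 2 were higher and 3 lower (71.4%, beside 18.0%). In Tyr19Phe against inhibitor-treated cells, 3 were higher and 3 lower (85.7%, beside 20.7%). CDK9 was 0.27 higher on the log2 scale in Tyr19Phe than in inhibitor-treated cells (edgeR adjusted p = 0.00961). That adjusted p was 0.0541 without inhibitor replicate 1 and 0.0794 without Tyr19Phe replicate 3. Against WT CDK9 cells the log2 fold change of CDK9 was 0.18 in Tyr19Phe and -0.09 with the inhibitor. Each of these was called in 0 of 17 alternative fits. ALK had at most 5 counts in a library, and gene counts cannot show the tyrosine substitution. In these bulk libraries a change in the number of cells of a state cannot be told apart from a change in RNA per cell. Nothing in the labels says that the libraries came from separate cultures, so the p-values measure the spread between these libraries, which may be technical.

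In promoter windows of 300 bases around RefSeq gene starts (GRCh38.p14), CACGTG was present in 3 of the 8 members with a window, MXD4, MNT and MLX. It was present in 22 of 54 (40.7%) of the windows available for a list of genes that MYC is known to activate, in 10.0% of the 10934 windows of tested genes and in 7.43% of all 27305 windows. HSPD1 and HSPE1, both counted among the 22, share the same site on opposite strands. The word reads the same on both strands. The windows of MAX, MXD1, MXI1, MXD3 and MGA held no such word, and the MYC promoter was not analysed here. A window of 30 bases around the word is printed for the members that hold it, to show which members carry the site that the network reads. It is also printed for LDHA and PES1, activated targets that moved in opposite directions in Tyr19Phe cells, and for ARRDC4, a target of MLX with MondoA. TXNIP, another such target, and the activated targets ODC1, NPM1, PA2G4 and CBX3 had windows without the word. Capitals mark the E-box, the strand is that of the gene, and positions count from the gene start, the start base being 0 and upstream bases negative. The match is a description of the letters only.
MXD4, chr4:2262330-2262359, minus strand, E-box at -238: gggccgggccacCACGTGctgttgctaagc
MNT, chr17:2401236-2401265, minus strand, E-box at -193: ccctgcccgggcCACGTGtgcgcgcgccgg
MLX, chr17:42567038-42567067, plus strand, E-box at -50: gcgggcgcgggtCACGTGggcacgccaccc
LDHA, chr11:18394464-18394493, plus strand, E-box at -87: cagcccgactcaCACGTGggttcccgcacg
PES1, chr22:30591880-30591909, minus strand, E-box at +13: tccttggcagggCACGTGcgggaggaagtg
ARRDC4, chr15:97960481-97960510, plus strand, E-box at -210: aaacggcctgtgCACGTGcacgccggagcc
LDHA held a second such word further upstream.

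Levels between members were compared per kilobase of the listed gene length. That length is 3001 bases for MYC, whereas its exons in GENCODE cover 6109 bases, and for MXI1 the values are 4607 and 5907. The levels per kilobase and the ratios below therefore depend on the length used, and other lengths were not tried. In WT CDK9 cells MYC was the highest at 39.3 ± 2.78 CPM per kilobase (SD, n = 3), followed by MXI1 at 10.3 ± 1.22 and MLX at 8.54 ± 0.53. MXD4 (7.01), MAX (6.90) and MGA (6.01) came next, then MXD3 (2.82) and MNT (1.10), and MXD1 was last at 0.0912 CPM per kilobase. The ranges of MXI1 and MLX, of MXD4 and MAX, and of MAX and MGA overlapped in WT CDK9 cells, so these neighbours did not differ beyond their spread. MYC and MXI1 came first and MXD3, MNT and MXD1 last in all 3 groups. In Tyr19Phe CDK9 cells MAX stood above MXD4. The level of MYC divided by the summed level of MXD1, MXI1, MXD3, MXD4, MNT and MGA per kilobase was 1.30, 1.46 and 1.55 in the WT CDK9 libraries. It was 1.33, 1.14 and 1.11 with the inhibitor and 1.26, 1.26 and 1.44 in Tyr19Phe CDK9 cells. These ratios overlapped between groups and were not tested.

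**Figure D1:**
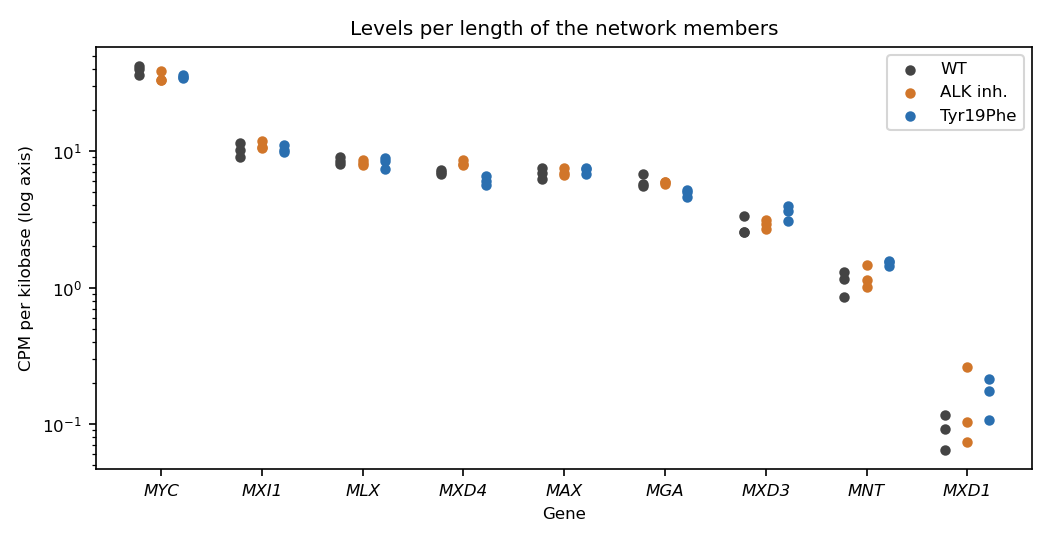
Level of each network member in each library, in TMM-scaled CPM per kilobase of gene length on a log axis, with genes ordered by their WT CDK9 mean and one colour per group. MYC stood highest in every library, near 39.3 in WT CDK9 cells, and MXD1 lowest, near 0.0912.

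Genes were called at an adjusted p under 0.05 in edgeR's quasi-likelihood test, adjusted by the Benjamini-Hochberg method over all tested genes. With the ALK inhibitor, 0 of the 9 members were called, in edgeR and in DESeq2, where 4.55% of all tested genes were called in edgeR. MYC and MXD4 had an unadjusted p under 0.05, which 15.1% of all genes reached. In Tyr19Phe against WT CDK9 cells, 3 members were called, MNT higher and MXD4 and MGA lower, where 18.0% of all genes were called. Of the members, 5 had an unadjusted p under 0.05 there, against 29.0% of all genes. In Tyr19Phe against inhibitor-treated cells, 2 members were called, MXD4 and MGA, both lower in Tyr19Phe, where 20.7% of all genes were called, and 3 had an unadjusted p under 0.05 (31.5%). Groups did not overlap for 1 member with the inhibitor (19.6% of all genes), 4 members in Tyr19Phe against WT CDK9 (32.6%) and 2 in the direct comparison (34.4%). The comparisons share libraries, so their values are set side by side and no overlap of members is drawn from them. The median log2 fold change of all tested genes was -0.0010 with the inhibitor, 0.0035 in Tyr19Phe against WT CDK9 and 0.0018 in the direct comparison.

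MYC lies on chromosome 8 from 127735434 to 127741434 on the plus strand (ENSG00000136997, GRCh38). Its level was 109, 119 and 126 CPM in the WT CDK9 libraries, 115, 99.2 and 100.0 with the inhibitor, and 104, 102 and 108 in Tyr19Phe CDK9 cells. The 3 Tyr19Phe libraries lay below all WT CDK9 libraries, by less than 1 CPM at the nearest pair, and inhibitor replicate 1 lay inside the WT CDK9 range. The log2 fold change was -0.17 ± 0.06 (SE) in both comparisons with WT CDK9, with 95% intervals of -0.30 to -0.04, and neither passed the threshold in edgeR (adjusted p = 0.162 with the inhibitor and 0.0585 in Tyr19Phe). The threshold was crossed in some alternative fits, 4 of 17 in Tyr19Phe and 1 of 17 with the inhibitor. In Tyr19Phe the adjusted p was 0.0499 with a filter of 1 count in total and 0.0458 in a fit of the compared groups alone. It was 0.0308 without WT CDK9 replicate 1, 0.0488 without inhibitor replicate 1 and 0.303 without WT CDK9 replicate 3. With the inhibitor it was 0.0407 without inhibitor replicate 1 and 0.530 without WT CDK9 replicate 3. Between Tyr19Phe and inhibitor-treated cells the interval of the difference was -0.13 to 0.13 on the log2 scale (adjusted p = 0.986). For the 33 tested genes within 5 Mb of MYC, the median in Tyr19Phe against WT CDK9 was -0.02.

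PVT1, the long noncoding RNA gene beside MYC, is known to be gained together with it. PVT1 measured 3.75, 3.22 and 4.54 CPM in WT CDK9, 4.65, 5.05 and 3.82 with the inhibitor and 5.32, 6.16 and 6.30 in Tyr19Phe cells. The Tyr19Phe libraries lay above all others, and PVT1 did not pass the threshold against WT CDK9 (log2 fold change 0.63, 95% interval 0.16 to 1.09, edgeR adjusted p = 0.0518). PVT1 was called in 5 of 17 alternative fits, with adjusted p from 0.0392 without WT CDK9 replicate 3 to 0.171 without WT CDK9 replicate 2. The others were upper quartile scaling (0.0429), library size scaling (0.0410), and leaving out inhibitor replicate 2 (0.0423) or 3 (0.0491). The MYC paralogs were at low levels. MYCN, the neuronal form, had counts in WT CDK9 replicate 3 alone and was not tested, and MYCL had a mean of 2.94 to 4.03 CPM over the groups with wide intervals (-1.09 to 0.20 with the inhibitor and -0.76 to 0.50 in Tyr19Phe).

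MAX, the obligate partner, lies on chromosome 14 from 65006174 to 65102695 on the minus strand (ENSG00000125952). It ranged from 27.8 to 33.5 CPM over all 9 libraries and its groups overlapped. The fitted log2 fold change was 0.03 under the inhibitor (-0.17 to 0.23, edgeR adjusted p = 0.947) and 0.07 in Tyr19Phe cells (-0.13 to 0.26, adjusted p = 0.715). The genes within 5 Mb of MAX had a median of -0.21 in Tyr19Phe against WT CDK9 (n = 66), which MAX did not share. Exons of other genes on the opposite strand, mainly FNTB, cover 16.1% of the exonic bases of MAX, and whether counting used strand is not given in the sources used here.

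**Figure D2:**
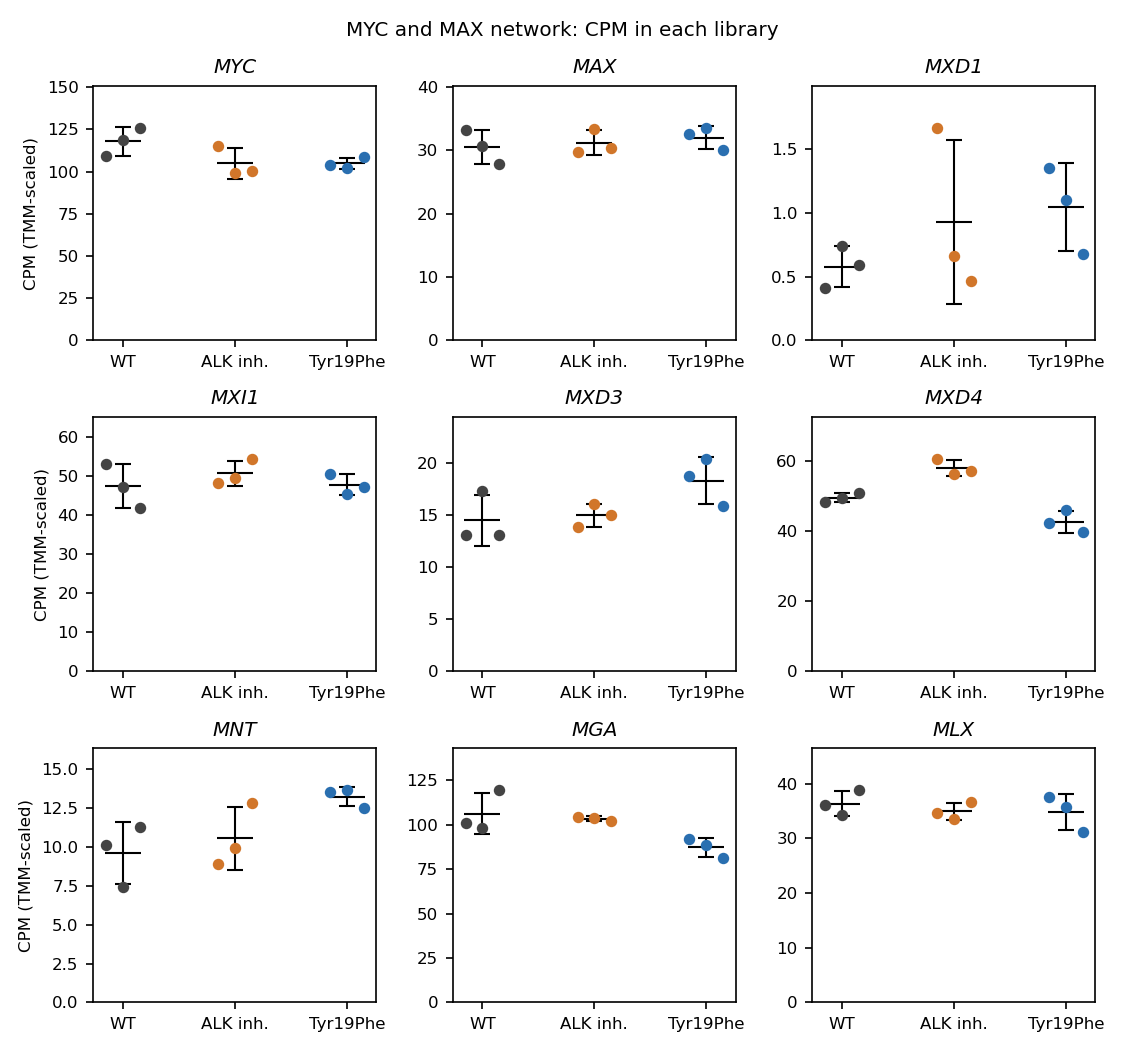
TMM-scaled CPM of the 9 network members in each library, with points for libraries, a horizontal line for the group mean and bars for the SD (n = 3). MXD4 was highest with the inhibitor (57.8) and lowest in Tyr19Phe cells (42.6), and MGA was lowest in all 3 Tyr19Phe libraries.

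MXD4, an MXD repressor expressed in many differentiated tissues and one of the members with a promoter E-box, lies on chromosome 4 from 2247432 to 2262294 on the minus strand (ENSG00000123933). Its level was 48.3, 49.3 and 50.9 CPM in WT CDK9 cells, 60.4, 56.1 and 57.0 with the inhibitor, and 42.2, 45.9 and 39.7 in Tyr19Phe cells. The 3 groups did not overlap, with the inhibitor libraries highest and the Tyr19Phe libraries lowest. Tyr19Phe CDK9 cells were below inhibitor-treated cells by a log2 fold change of -0.44 ± 0.08 (SE, 95% interval -0.60 to -0.28, edgeR adjusted p = 5.21e-05), and this call held in each of the 17 alternative fits. Against WT CDK9 the log2 fold change was 0.23 with the inhibitor (0.07 to 0.38, adjusted p = 0.101) and -0.22 in Tyr19Phe cells (-0.37 to -0.06, adjusted p = 0.0491).

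The Tyr19Phe call of MXD4 against WT CDK9 stood at the threshold and was kept in 4 of 17 alternative fits. It was lost when any 1 library was left out other than Tyr19Phe replicate 2, with adjusted p from 0.0545 without inhibitor replicate 2 to 0.235 without Tyr19Phe replicate 3. Of the 82 tested genes within 5 Mb of MXD4, 64 had a log2 fold change below 0 in Tyr19Phe against WT CDK9, with a median of -0.18. The median over chromosome 4 was -0.22. In the direct comparison the same neighbours had a median of -0.11 and chromosome 4 one of -0.23, against -0.44 for MXD4. The part of the neighbourhood or the chromosome in these values was not tested.

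MGA, the scaffold of PRC1.6, lies on chromosome 15 from 41621224 to 41773081 on the plus strand (ENSG00000174197). Its level was 101, 98.4 and 119 CPM in WT CDK9 cells, 104, 104 and 102 with the inhibitor, and 91.7, 88.7 and 81.3 in Tyr19Phe cells. Every Tyr19Phe library lay below all other libraries, and inhibitor and WT CDK9 libraries overlapped. MGA was lower in Tyr19Phe by -0.28 ± 0.07 on the log2 scale against WT CDK9 (-0.42 to -0.15, edgeR adjusted p = 0.00204) and by -0.25 ± 0.07 against inhibitor-treated cells (-0.38 to -0.11, adjusted p = 0.00651). Without WT CDK9 replicate 3, the highest library, the first had an adjusted p of 0.0600, and without Tyr19Phe replicate 3 the second had 0.0628. With the inhibitor the log2 fold change was -0.04 (adjusted p = 0.876). The genes within 5 Mb of MGA had a median of -0.06 in Tyr19Phe against WT CDK9 (n = 113).

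MNT, a widely expressed MYC antagonist whose promoter also held an E-box, lies on chromosome 17 from 2384060 to 2401118 on the minus strand (ENSG00000070444). Its level was 10.1, 7.44 and 11.3 CPM in WT CDK9 cells, 8.88, 9.94 and 12.8 with the inhibitor, and 13.5, 13.6 and 12.5 in Tyr19Phe cells. The Tyr19Phe libraries lay above all WT CDK9 libraries and overlapped those with the inhibitor. The log2 fold change in Tyr19Phe against WT CDK9 was 0.46 ± 0.16 (0.13 to 0.79, edgeR adjusted p = 0.0460), and 0.13 with the inhibitor (adjusted p = 0.807). The direct difference did not pass (0.33, adjusted p = 0.161). The call was kept in 11 of 17 alternative fits. It was lost in DESeq2 (adjusted p = 0.0650), without WT CDK9 replicate 1 (0.0814) or 2 (0.255) and without Tyr19Phe replicate 1 (0.110), 2 (0.116) or 3 (0.0597). Genes within 5 Mb had a median of -0.02 (n = 119), and opposite-strand exons cover 12.2% of the exonic bases of MNT.

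**Figure D3:**
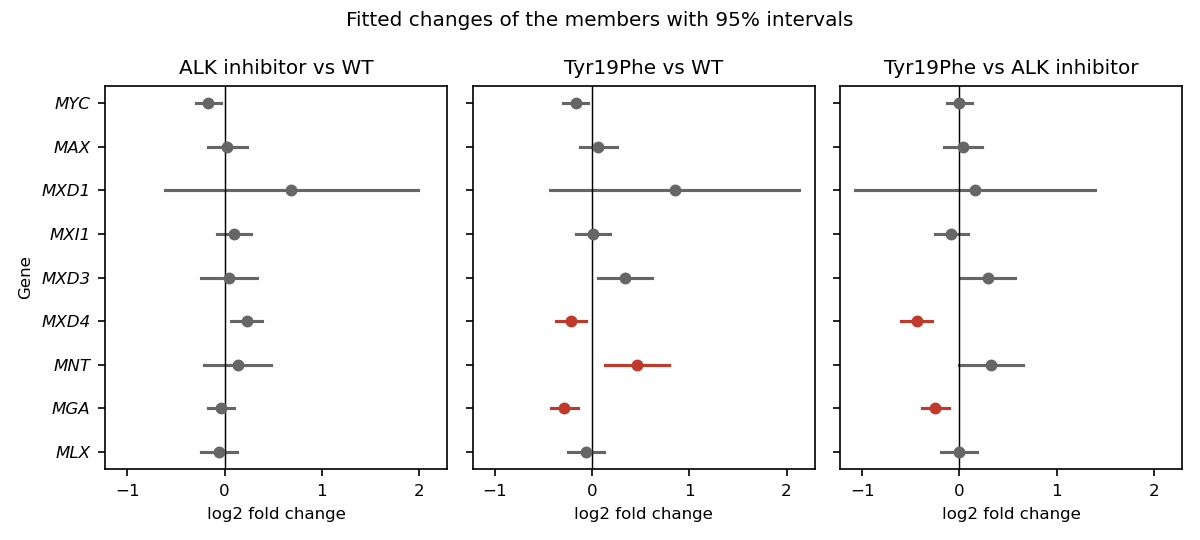
Fitted log2 fold change of each network member with its 95% interval in 3 comparisons, red where called at an adjusted p under 0.05 in edgeR. Red points are MXD4, MNT and MGA in Tyr19Phe against WT CDK9 and MXD4 and MGA in Tyr19Phe against the inhibitor, and 0 members were called with the inhibitor.

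The other MXD repressors did not pass in any comparison. MXD3 lies on chromosome 5 from 177301461 to 177312757 on the minus strand (ENSG00000213347), MXI1 on chromosome 10 from 110207605 to 110287365 on the plus strand (ENSG00000119950) and MXD1 on chromosome 2 from 69897688 to 69942945 on the plus strand (ENSG00000059728). MXD3, which is known to be expressed in cycling cells, measured 13.1, 17.4 and 13.1 CPM in WT CDK9, 13.9, 16.1 and 14.98 with the inhibitor and 18.8, 20.4 and 15.8 in Tyr19Phe cells. Its Tyr19Phe and WT CDK9 libraries overlapped, with a log2 fold change of 0.34 (0.06 to 0.61, edgeR adjusted p = 0.0862), and the adjusted p was 0.0203 without WT CDK9 replicate 2 and 0.0411 without Tyr19Phe replicate 3. Exons of other genes cover the MXD3 exons on the same strand (19.5%, RAB24) and on the opposite strand (24.2%, PRELID1), so reads there may be shared and its value is uncertain. MXI1, named for its binding to MAX, ranged from 41.9 to 54.2 CPM with log2 fold changes of 0.09 with the inhibitor (-0.08 to 0.27, adjusted p = 0.699) and 0.01 in Tyr19Phe cells (-0.16 to 0.18, adjusted p = 0.955). MXD1, an MXD member induced on differentiation, was the least abundant, with 8, 14 and 11 counts in WT CDK9, 35, 12 and 9 with the inhibitor and 40, 31 and 18 in Tyr19Phe cells. Its intervals were wide, from -0.62 to 1.99 with the inhibitor and from -0.43 to 2.13 in Tyr19Phe.

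MLX, the third member with a promoter E-box, lies on chromosome 17 from 42567068 to 42573239 on the plus strand (ENSG00000108788). It ranged from 31.2 to 38.8 CPM with overlapping groups, and its log2 fold change was -0.06 in both comparisons with WT CDK9, with 95% intervals of -0.25 to 0.13 with the inhibitor and -0.25 to 0.12 in Tyr19Phe. Opposite-strand exons, mainly of PSMC3IP, cover 18.2% of its exonic bases. Its partner MondoA (gene MLXIP) did differ. MLXIP measured 157, 149 and 155 CPM in WT CDK9, 160.3, 172 and 168 with the inhibitor and 134, 136 and 137 in Tyr19Phe cells, where all 3 libraries lay below the rest. The log2 fold change was -0.18 against WT CDK9 (-0.28 to -0.08, edgeR adjusted p = 0.00720, and 0.0545 without WT CDK9 replicate 1) and -0.30 against the inhibitor (adjusted p = 2.02e-05). With the inhibitor it was 0.12 (adjusted p = 0.218). ChREBP (gene MLXIPL) was at 0.178 to 1.23 CPM, with no call.

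TXNIP and ARRDC4, arrestin-like proteins that limit glucose uptake, are known targets of MondoA with MLX. TXNIP measured 160.3, 167 and 179.8 CPM in WT CDK9, 218, 217 and 224 with the inhibitor and 138, 139 and 132 in Tyr19Phe cells. The 3 groups did not overlap. TXNIP was higher with the inhibitor by a log2 fold change of 0.38 ± 0.05 (edgeR adjusted p = 1.80e-06) and lower in Tyr19Phe cells by -0.31 ± 0.05 (adjusted p = 1.66e-05), and the direct difference was -0.69 (adjusted p = 1.37e-12). ARRDC4, whose promoter held an E-box, measured 31.4, 32.8 and 30.9 CPM in WT CDK9, 27.6, 29.9 and 28.6 with the inhibitor and 17.2, 14.6 and 19.7 in Tyr19Phe cells. The inhibitor libraries lay just below the WT CDK9 libraries and the Tyr19Phe libraries far below both. ARRDC4 was lower in Tyr19Phe cells by -0.89 ± 0.11 (adjusted p = 1.98e-07), whereas under the inhibitor the log2 fold change was -0.14 (-0.36 to 0.07, adjusted p = 0.600). These calls of TXNIP and ARRDC4 held in all 17 alternative fits.

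**Figure D4:**
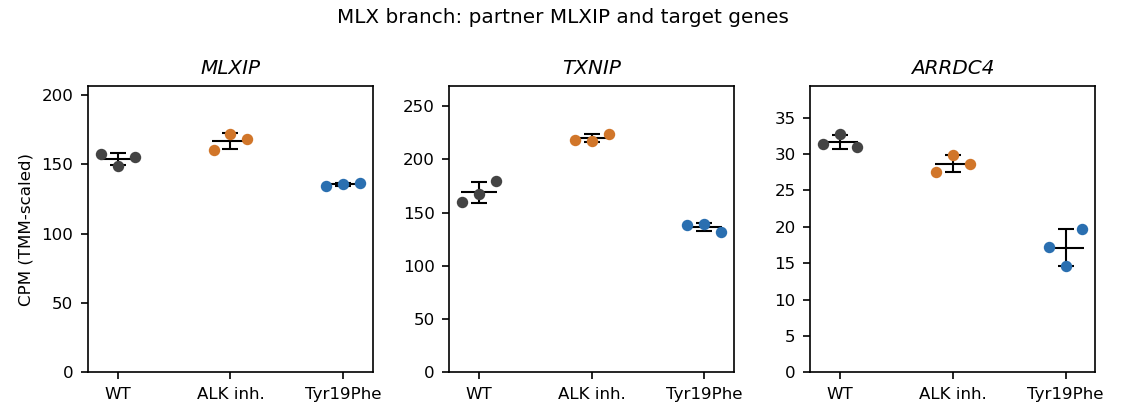
TMM-scaled CPM of MLXIP (MondoA) and of the MLX-branch targets TXNIP and ARRDC4 in each library, with the group mean and SD (n = 3). TXNIP was highest with the inhibitor (219.8) and all 3 genes were lowest in Tyr19Phe cells.

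Genes that MYC is known to activate, mostly for nucleolar and ribosome assembly work, were taken as a list of 66, and all 66 were tested. This list, like those below, was chosen with earlier results of these data known. With the inhibitor 9 were called lower and 0 higher (13.6% of the list called, against 2.73% of all genes lower and 1.82% higher). Of the 66, 59 had a log2 fold change below 0 (89.4%, against 50.3% of all genes), with a median of -0.12. In Tyr19Phe against WT CDK9, 4 were called higher and 5 lower, with 30 below 0 and a median of 0.03, where 7.61% and 10.4% of all genes were called higher and lower. In Tyr19Phe against inhibitor-treated cells, 21 were called higher and 2 lower with a median of 0.15, where 9.57% and 11.1% of all genes were called. The 2 comparisons with inhibitor-treated cells share those libraries.

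ODC1, the first enzyme of polyamine synthesis, measured 145, 146 and 135 CPM in WT CDK9, 123, 111 and 112 with the inhibitor and 125, 131 and 139 in Tyr19Phe cells. All inhibitor libraries lay below the others, with a log2 fold change of -0.30 ± 0.06 against WT CDK9 (edgeR adjusted p = 0.000679). In Tyr19Phe it was -0.11 (-0.23 to 0.00, adjusted p = 0.182). NPM1, a nucleolar chaperone, was lower in both, by -0.17 ± 0.04 with the inhibitor (adjusted p = 0.00152) and -0.14 ± 0.04 in Tyr19Phe (adjusted p = 0.00581). NOLC1, a nucleolar phosphoprotein, was lower with the inhibitor by -0.28 ± 0.06 (adjusted p = 0.00562, and 0.0904 without inhibitor replicate 2), and PA2G4, which acts in ribosome assembly, by -0.22 ± 0.05 (adjusted p = 0.00600, and 0.0664 without WT CDK9 replicate 2). Their log2 fold changes in Tyr19Phe were -0.04 and -0.06. The number called lower with the inhibitor depended on single libraries, being 5 without WT CDK9 replicate 1 and 4 without inhibitor replicate 2, the library with fewer detected genes.

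Among the genes called in Tyr19Phe cells, CBX3, a heterochromatin protein, fell from 198 ± 4.18 CPM in WT CDK9 to 161 ± 1.85 (log2 fold change -0.30, edgeR adjusted p = 1.72e-05). LDHA, the lactate dehydrogenase subunit of glycolysis, was lower by -0.14 (adjusted p = 0.000273). MCM5, a subunit of the replicative helicase, rose from 143 ± 6.16 to 178 ± 5.85 CPM (0.32, adjusted p = 2.38e-05), and PES1, a factor for the large ribosomal subunit, rose by 0.33 (adjusted p = 6.84e-05). MCM5 and PES1 both lie on chromosome 22, where the median of all tested genes was 0.21 in this comparison, and the part of the chromosome in their values was not tested. None of these genes was called with the inhibitor.

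**Figure D5:**
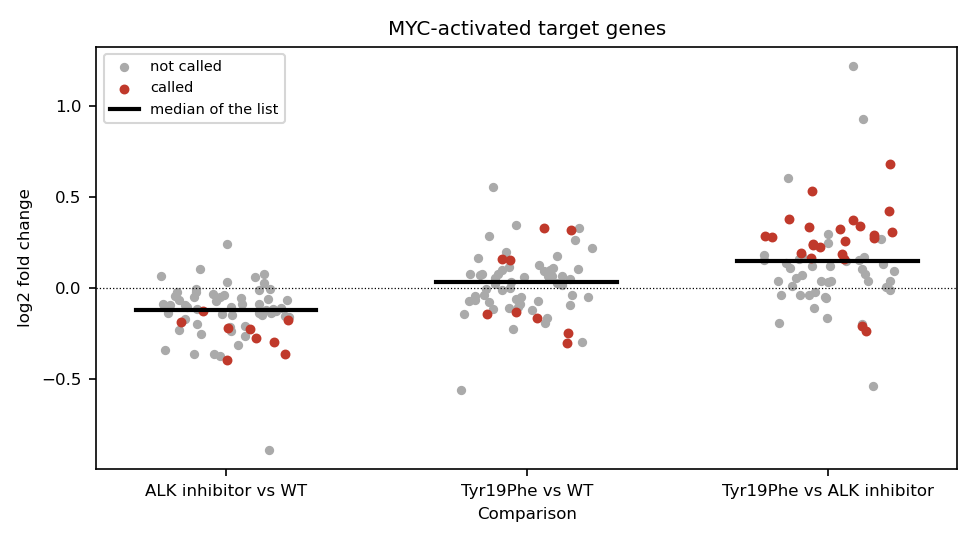
Log2 fold change of the 66 MYC-activated targets in each comparison, red where called at an adjusted p under 0.05 in edgeR, with a bar at the list's median. With the inhibitor the points lie mostly below 0 (median -0.12), in Tyr19Phe against WT CDK9 on both sides (0.03), and in Tyr19Phe against the inhibitor mostly above 0 (0.15).

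Of 7 genes listed as repressed by MYC, 6 were tested and 0 were called with the inhibitor, beside 4.55% of all genes, and 2 (33.3%) in Tyr19Phe cells, beside 18.0%. In Tyr19Phe cells the growth-arrest genes GADD45A and GADD45B rose, by 0.42 ± 0.06 (edgeR adjusted p = 1.29e-06) and 0.39 ± 0.07 (adjusted p = 4.40e-05), and 0 were called lower.

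Of 18 genes of the SIN3 and NCOR corepressor complexes, 0 were called with the inhibitor and 4 (22.2%) in Tyr19Phe against WT CDK9, where 4.55% and 18.0% of all genes were called. In Tyr19Phe cells SIN3B, a SIN3 scaffold, was higher (0.21, edgeR adjusted p = 0.0294), and ING2 (-0.40, 0.0104), the deacetylase HDAC2 (-0.15, 0.0191) and the other scaffold SIN3A (-0.16, 0.0387) were lower. Each of these calls was lost when certain single libraries were left out, with adjusted p up to 0.162 for SIN3B and 0.230 for SIN3A without WT CDK9 replicate 3, 0.118 for HDAC2 without Tyr19Phe replicate 2 and 0.0515 for ING2 without Tyr19Phe replicate 1. ING2 lies on chromosome 4, with its median of -0.22.

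Of 12 genes of the PRC1.6 complex built on MGA, 1 (8.33%, beside 4.55% of all genes) was called with the inhibitor, lower, namely WDR5, a reader of histone H3 that also binds MYC. WDR5 measured 109.85, 119 and 109.7 CPM in WT CDK9, 97.9, 103 and 89.6 with the inhibitor and 132, 147 and 149.7 in Tyr19Phe cells, so that the 3 groups did not overlap, with the inhibitor libraries lowest and the Tyr19Phe libraries highest. The log2 fold change was -0.22 with the inhibitor (edgeR adjusted p = 0.0311, up to 0.221 without inhibitor replicate 3), 0.34 in Tyr19Phe (adjusted p = 7.46e-05) and 0.56 in the direct comparison (adjusted p = 1.56e-08). In Tyr19Phe cells L3MBTL2, a PRC1.6 subunit, was also higher (0.47, adjusted p = 0.00315), and the heterochromatin proteins CBX3 and CBX1 (-0.29, adjusted p = 8.78e-05) were lower, so that 4 of the 12 (33.3%) were called, beside 18.0% of all genes. L3MBTL2 lies on chromosome 22. CBX3 is also on the list of activated targets and WDR5 on that of MYC cofactors below, so their calls enter both counts.

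Of 15 coactivators and cofactors of MYC, WDR5 was the 1 called with the inhibitor (6.67%, beside 4.55% of all genes). In Tyr19Phe cells WDR5 and SMARCB1 were higher and TRRAP, MYCBP2 and BPTF were lower (33.3% of the list, beside 18.0% of all genes). TRRAP, the scaffold of histone acetyltransferase complexes, changed by -0.22 (edgeR adjusted p = 0.00138). MYCBP2 changed by -0.25 (adjusted p = 0.0200, up to 0.126 without WT CDK9 replicate 1) and BPTF, a chromatin remodelling subunit, by -0.17 (adjusted p = 0.0364, up to 0.217 without Tyr19Phe replicate 2). SMARCB1 was named after its value was seen and lies on chromosome 22 (0.17, adjusted p = 0.0431, up to 0.234 without WT CDK9 replicate 3).

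Of 18 genes that control the stability of the MYC protein, 0 were called with the inhibitor and 4 (22.2%) in Tyr19Phe cells, beside 4.55% and 18.0% of all genes. HUWE1, a ubiquitin ligase, fell from 407 ± 20.5 to 317 ± 15.4 CPM (-0.36, edgeR adjusted p = 1.73e-07). The kinase GSK3B was lower (-0.18, adjusted p = 0.0201, and 0.207 without WT CDK9 replicate 2). The ubiquitin ligase subunit FBXW7 was also lower (-0.42, adjusted p = 0.00882, and 0.109 without WT CDK9 replicate 3). GSK3B and then FBXW7 act to mark MYC for degradation. SET, an inhibitor of the phosphatase PP2A, was higher (0.19, adjusted p = 0.000208). FBXW7 lies on chromosome 4. Transcript levels say nothing here of the MYC protein, which was not measured in these libraries.

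Across the 9 libraries the transcripts whose log2 CPM was most like that of a member were taken among genes averaging 5 CPM or more. For MYC these were USP33 (Pearson r = 0.941), LRR1 (0.934) and NEXN (0.914). For MXD4 they were SDC3 (0.978), NES (0.977) and SDC1 (0.974), and for MGA OLFML2A (0.984), ARAP2 (0.955) and NIPBL (0.951). For MNT they were ARPC2 (0.958), COG1 (0.948) and STK36 (0.928), and for MXD3 SH3GL1 (0.980), KLHDC3 (0.967) and USP35 (0.961). These are descriptions over 9 libraries in 3 groups that share their scaling and depth, and they follow the group means as well as the spread within groups. They were also picked as the highest values over many genes, and with so few libraries that choice alone gives high values.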

How the data were processed

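RNA of SKOV3 cells was sequenced in 3 groups of 3 libraries. The authors mapped reads to hg38 and deposited read counts per gene without normalization. The submitters' processing notes name CASAVA, HISAT2 2.0.5 and featureCounts 1.5.0-p3. The annotation and strand setting are not given in the sources used here. Strand and overlapping exons could change counts of MXD3, MLX, MAX and MNT. Groups came from the labels. Same-numbered libraries of different groups did not deviate together (r from -0.0116 to 0.0260), so they were not paired.

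The fits used edgeR 4.0.16 and limma 3.58.1 under R 4.3.3, and the summaries Python 3.11.15. Genes passed filterByExpr (minimum count 10, minimum total 15), libraries were scaled by TMM, and 1 quasi-likelihood model, with a mean for each group, took in all 9 libraries (6 residual degrees of freedom). Genes with a Benjamini-Hochberg adjusted p under 0.05 were called. Log2 CPM used a prior count of 2. Exonic overlap was read from GENCODE annotation of hg38. The code was tested on simulated counts. DESeq2 1.42.0 and other alternatives are given in the closing section. Floors cover counting error only.

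The members and gene lists were chosen with earlier results of these data known. Genes named were the members, MYCN, MYCL, MLXIP, MLXIPL, PVT1, TXNIP, ARRDC4, CDK9 and ALK, up to 4 called genes per list with the smallest adjusted p in each comparison with WT CDK9, and the 3 genes most like each member over the libraries. Other genes were named after their values were seen.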

Additional observations from a re-analysis of the deposited data

How the results depend on the processing

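Each result was recomputed under 17 alternatives: DESeq2's size factors, upper quartile or library size scaling, DESeq2 itself, a filter of 1 count over all libraries, a filter of 10 counts in each library, a replicate block, the 2 compared groups alone, and each of the 9 libraries left out. With the replicate block, 0, 3 and 2 members were called with the inhibitor, in Tyr19Phe against WT CDK9 and in the direct comparison, as without it, and no call of a named gene changed; 12 activated targets were called lower with the inhibitor. Leaving out single libraries gave 0 to 1 members with the inhibitor (1 without inhibitor replicate 1), 1 to 3 in Tyr19Phe (1 without WT CDK9 replicate 3 or Tyr19Phe replicate 1), 1 to 2 in the direct comparison (1 without Tyr19Phe replicate 3), and 4 to 9 targets lower with the inhibitor. A fit of the 2 groups alone called 2 targets higher in Tyr19Phe against WT CDK9 in place of 4. No value that reversed was called. In Tyr19Phe against the inhibitor, MYC turned from -0.00 to 0.0088 with upper quartile scaling, 0.00022 with the 1-count filter and 0.0036 with the 10-count filter, and MLX to 0.0074 and 0.0028 under the first and last of these. With single libraries left out, values spanned 0 with the inhibitor for MAX (-0.0329 to 0.0947), MXD1 (-0.0409 to 1.01), MXD3 (-0.0209 to 0.198), MNT (-0.0323 to 0.266) and MGA (-0.0860 to 0.0574), in Tyr19Phe for MXI1 (-0.0665 to 0.105) and MLX (-0.118 to 0.0174), and in the direct comparison for MYC (-0.0400 to 0.0730), MXD1 (-0.154 to 0.895) and MLX (-0.0623 to 0.0728). The causes were not tested. MXD1 had 8 to 40 counts per library.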

Other observations

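For MXD1 the most similar transcripts over the 9 libraries were TMEM53 (Pearson r = 0.950), FLCN (0.927) and DGCR2 (0.907), and for MLX they were APMAP (0.962), AMZ2P1 (0.962) and FADS2 (0.918). For MAX they were FBXW2 (0.888), NABP2 (0.877) and EEA1 (0.874). MAX and MXI1 thus had the lowest leading values of the 9 members, with ZBED9 at 0.896 for MXI1. These are given as values over libraries that share groups, scaling and depth, and they too were picked as the highest over many genes.

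Of the 9 activated targets called lower with the inhibitor, 1 was also called lower in Tyr19Phe against WT CDK9 and 1 was called higher there. Of all genes, 10.4% and 7.61% were called lower and higher in that comparison. In Tyr19Phe against the inhibitor 6 of the 9 were called higher, where 9.57% of all genes were. The low inhibitor libraries that picked these 9 genes are also the ones compared against there, so that count is not independent of the choice. TCOF1, a nucleolar factor named after its values were seen, was the one called in opposite directions (log2 fold change -0.23 with the inhibitor, edgeR adjusted p = 0.0115, and 0.15 in Tyr19Phe, adjusted p = 0.0460). The inhibitor call was lost without WT CDK9 replicate 3 (adjusted p = 0.0680) and without inhibitor replicate 1 (0.0511). The Tyr19Phe call was lost in 8 of 17 alternative fits. The comparisons with WT CDK9 share the WT CDK9 libraries as well, so these counts are a description and nothing is inferred from them.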
